A study of Caenorhabditis elegans with 12 samples.

Results

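Astacin metalloproteases are described here across whole Caenorhabditis elegans of 4 genotypes: every protein-coding gene of the count table whose symbol is nas- followed by a number. The rule found 36 genes among 46936 listed genes, 19994 of them protein-coding. It used no measured value. A filter on low counts kept 27 of the 36, out of 15575 genes kept in all, and tests apply to these 27. In 3 of them no library of some genotype reached the filter's minimum of 0.456 CPM: nas-1 and nas-25 in wild type, and nas-22 in all 3 mutant genotypes. These 3 passed only through genotypes where they are high, so they had to differ; they are described by their counts, and member counts are also given over the remaining 24. The other 9 are described by their counts, and 1 pseudogene, nas-40, is left out.

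Astacins are zinc endopeptidases that are made as inactive proenzymes, and most are secreted. They are named after a digestive enzyme of crayfish, and the family also holds the procollagen processing enzyme BMP1/tolloid and hatching enzymes. In C. elegans the family is expanded. Its studied members act in shedding the old cuticle at a moult, in maturation of cuticle collagen, in building the pharyngeal grinder and in hatching.

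There were 3 libraries for each of wild type, skn-1gf, daf-2lf and daf-2lf;skn-1gf, the last called the double mutant. The suffixes gf and lf mark alleles with gained and lost function. SKN-1 is an Nrf-type transcription factor of stress responses, and DAF-2 is the insulin/IGF-1 receptor homologue. The labels name no allele, age, stage or sex, and do not say how many animals or which cultures stand behind a library, so p-values measure only the spread between these libraries, which may be technical. All groups were kept on NGM agar plates with OP50 bacteria as food. The study set out to compare gene expression of the double mutant with that of daf-2lf.

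Total counts per library ran from 16779245 to 29346039, and 3 counts, taken as the floor of detection, correspond to 0.105 to 0.192 CPM. CPM here are deposited counts divided by a library's total, scaled by the trimmed mean of M-values, and multiplied by 1e6. One library stands apart. In daf-2lf replicate 1, longer genes sat lower than in the other two daf-2lf libraries, with a Spearman rho of -0.583 across 15575 genes between gene length and deviation, against -0.222 to 0.154 in the 9 libraries of the other genotypes. Of the 27 tested astacin genes, 15 were lower in this library than in both other daf-2lf libraries, with a median deviation of -0.48 on the log2 scale. Member counts in contrasts with daf-2lf are given without it too, and so are the values of the other 24 members where leaving it out changed a call. Leaving it out ended 1 call, that of nas-27 in daf-2lf against wild type, and added 13 over the 6 contrasts. A gene is called, and said to rise or fall, where its adjusted p in edgeR's quasi-likelihood test over all 15575 genes was under 0.05.

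Whole-animal markers moved with genotype too. All 8 oocyte and eggshell markers fell against wild type in each of the 3 mutant genotypes, and their summed level was 281 to 381 CPM in wild-type worms, 26.2 to 114 in skn-1gf, 23.8 to 51.7 in daf-2lf worms and 48.6 to 49.2 in double mutants. Sperm markers summed to 548 to 641 CPM in wild-type worms, 120 to 305 in skn-1gf, 1.20 to 1.85 in daf-2lf worms and 1.46 to 2.09 in double mutants. Adult and yolk markers summed to 472 to 584 CPM in wild-type worms and 185 to 240.2 in skn-1gf. In daf-2lf worms they summed to 93.2 to 135, and in double mutants to 141.5 to 152. The listed genes moved in opposite directions. vit-2, vit-5, vit-6 and col-19 fell against wild type in every mutant genotype. lin-29 rose in daf-2lf worms and double mutants. mab-10 rose in skn-1gf but fell in daf-2lf worms and double mutants. vit-6 averaged 301 CPM in wild-type worms, 25.5 in skn-1gf, 0.476 in daf-2lf worms and 1.81 in double mutants. lin-29 averaged 53.7, 67.3, 81.0 and 99.0 CPM in the same order, and mab-10 69.7, 106, 38.4 and 44.5. The 6 embryo markers were near 0 everywhere, at most 0.225 CPM in sum, with hlh-25 and pes-10 at 0 counts in all libraries. The part of these differences in the astacin results was not tested, and in whole animals fewer cells of a type and less RNA per cell cannot be told apart.

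The deposited annotation gives an astacin domain (peptidase family M12A) for all 36 genes. For 24 it lists no other domain. It adds a ShK-like domain for 8 genes (nas-6, nas-8 and nas-10 to nas-15), a CUB domain for nas-36, nas-38 and nas-39, a thrombospondin type 1 domain for nas-36 and nas-37, and a calcium-binding EGF domain for nas-39. Chromosome V carries 13 of the genes, X 8, II 5, IV 4, and I and III 3 each. On chromosome V, nas-16, nas-18, nas-17 and nas-19 lie together between 11392320 and 11402710, and nas-20, nas-21 and nas-22 between 11470925 and 11478007 in the WBcel235 assembly. Gene numbers below are NCBI gene identifiers and coordinates are those of the deposited table, on that assembly.

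The family's summed level was 411 to 514 CPM in wild-type worms, 294 to 309 in skn-1gf, 449 to 698 in daf-2lf worms and 779.7 to 839 in double mutants. nas-37, a protease of cuticle shedding, was the most abundant member in every library, with 23.3% to 45.8% of that sum. Per kilobase of the deposited gene length, so that genes can be compared, the mean level over all libraries was 80.1 CPM per kb for nas-37, 30.99 for nas-11, 23.6 for nas-15, 14.4 for nas-30 and 12.2 for nas-38. The lowest of the tested genes by this measure was nas-1 at 0.341.

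**Figure D1:**
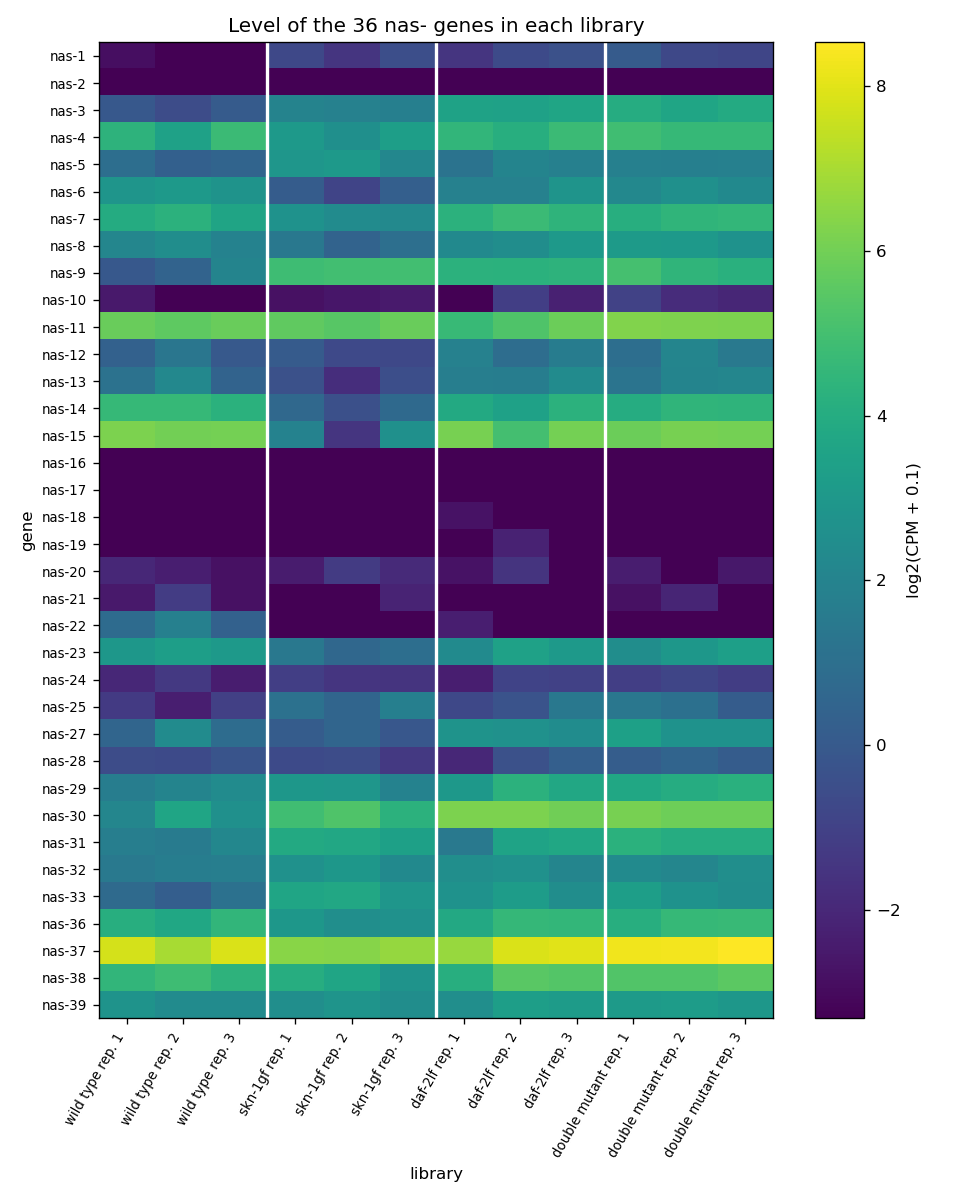
Level of each of the 36 astacin genes (rows) in each of the 12 libraries (columns, grouped by genotype with white lines between), as log2 of CPM plus 0.1; brighter is higher. nas-37 is the brightest row in every library, nas-14 and nas-15 are dark in the 3 skn-1gf libraries, and nas-2, nas-16 and nas-17 have 0 counts throughout.

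The comparison of skn-1gf with wild type asks how worms with activated SKN-1 differ in an otherwise normal background. Of the 24 members left without nas-1, nas-22 and nas-25, 12 fell and 7 rose in skn-1gf, and over all 27 tested members 13 were called lower and 9 higher. The 2 most reduced apart from nas-22 were nas-15 and nas-14, both with a ShK-like domain, followed by nas-6, a protease of the pharyngeal grinder. Those with the largest rise among genes with at least 5 CPM in 1 genotype were nas-9, nas-33 and nas-5. The moulting proteases nas-36, nas-37 and nas-38 fell. The 22 called genes are 81.5% of those tested, where 43.6% of all tested genes were called in this comparison (22.6% higher, 21.0% lower). The 3 libraries of each genotype did not overlap for 22 of the 27, against 67.4% of all tested genes. The median log2 change over the tested members was -0.99, or -1.04 over the 24, and over all tested genes 0.03. Among the 24 the libraries did not overlap for 19.

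In daf-2lf against wild type, worms with impaired DAF-2 are compared with normal ones, and oocyte, sperm and yolk markers differed too. The part of those differences was not tested. Of the 24 members, 9 rose in daf-2lf (nas-3, nas-5, nas-9, nas-27, nas-29, nas-30, nas-31, nas-32 and nas-33) and 0 fell. Over all 27, nas-1 and nas-25 were also called higher and nas-22 lower. These 12 called are 44.4% of the tested members, below the 52.3% of all tested genes that were called (29.5% higher, 22.9% lower). The median log2 change was 0.55 over the members, 0.53 over the 24 and 0.15 over all genes. The moulting proteases nas-36, nas-37 and nas-38, at 0.21, 0.03 and 0.55 on the log2 scale, were not called, and neither were nas-14 and nas-15, at -0.59 and -0.31. Libraries did not overlap for 11 of 27 members and 8 of the 24, against 61.2% of all genes. Without daf-2lf replicate 1, 13 members were called, nas-38 and nas-39 coming in and nas-27 going out, and the split between higher and lower calls moved with the scaling, to 10 higher and 3 lower with RLE scaling, where nas-6 and nas-14 were called lower.

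The double mutant against daf-2lf is the comparison for which the study was designed. It shows how worms with skn-1gf differ where daf-2 is already impaired. None of the 27 astacin genes was called by edgeR's quasi-likelihood test, where 1.62% of all tested genes were (1.01% higher, 0.616% lower). At an unadjusted p under 0.05 there were 2, nas-11 and nas-37. limma-voom with sample weights called 3 (nas-11, nas-14 and nas-15) and DESeq2 called 1, nas-11, all higher in the double mutant. For the 26 members with an interval, log2 differences ran from -0.15 to 0.89, and 21 were above 0. The median log2 difference was 0.24 over the 27 tested members and 0.0 over all tested genes. With each library's length trend removed, these medians were 0.07 and -0.03. The 95% intervals reached from -1.13 to 1.88. They lay within 1 log2 unit either way for 15 members. For the other 11 they went beyond it, so a difference of that size lay within their intervals. Libraries did not overlap for 3 of the 27 (nas-11, nas-31 and nas-37), against 23.7% of all genes. Leaving out daf-2lf replicate 1 also gave 0 calls, and leaving out daf-2lf replicate 3 gave 1, nas-11.

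Whether skn-1gf acted differently on the astacins with and without daf-2lf was tested directly through the interaction term. It was called for 17 of the 27 members, or 16 of the 24, where 27.7% of all tested genes were called (9.91% positive, 17.7% negative). It was positive for 10: nas-4, nas-6, nas-7, nas-8, nas-13, nas-14, nas-15, nas-23, nas-36 and nas-37. It was negative for 7: nas-1, nas-3, nas-5, nas-9, nas-30, nas-32 and nas-33. Its sizes ran from -4.18 to 4.52 on the log2 scale. The lowest is that of nas-1, which passed the filter only through the mutants and has 1 wild-type count. Among the called members of the 24 the sizes ran from -3.57 (nas-9) to 4.52 (nas-15). Leaving out daf-2lf replicate 1 gave 22 calls, with nas-11, nas-25, nas-27, nas-31 and nas-38 added. The term is built from the same libraries as the comparisons above, so it is not a separate observation of them.

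**Figure D2:**
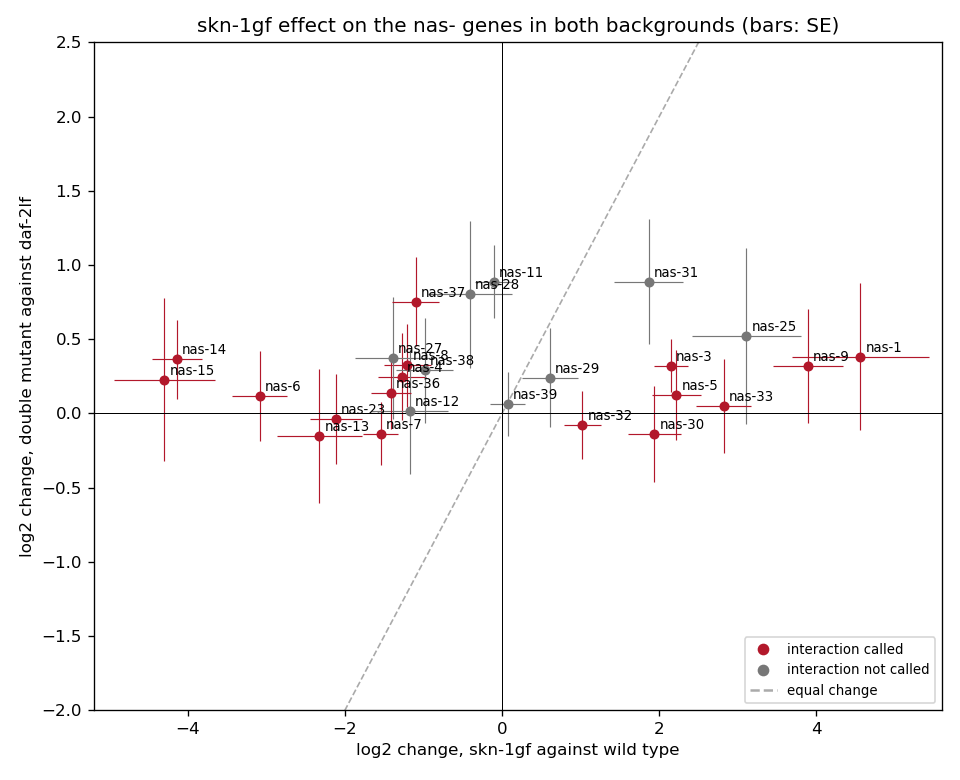
Log2 change of each tested astacin gene in skn-1gf against wild type (horizontal) and from daf-2lf to the double mutant (vertical), with bars of 1 SE; red marks genes with a called interaction, and the dashed line marks equal changes. Values spread from -4.30 to 4.56 horizontally and from -0.15 to 0.89 vertically. The 4.56 is that of nas-1, which has 1 count in wild type. nas-22 is not drawn because it has 0 counts in skn-1gf and in the double mutant.

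Set against skn-1gf, the double mutant had 16 astacin genes higher and 1, nas-5, lower, none of them among the 3 genes set aside. These 17 of 27 compare with 31.7% of all tested genes called (13.4% higher, 18.4% lower). The 16 were nas-3, nas-4, nas-6, nas-7, nas-8, nas-12, nas-13, nas-14, nas-15, nas-23, nas-27, nas-29, nas-30, nas-36, nas-37 and nas-38. The median log2 difference was 1.70 over the tested members and -0.04 over all tested genes. Libraries did not overlap for 21 of 27, against 56.3% of all genes. Calls of nas-11, nas-28 and nas-39 as higher were added without daf-2lf replicate 1.

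Against wild type the double mutant had 12 of the 24 members higher and 0 lower, and 14 of all 27 higher and nas-22 lower, where 47.3% of all tested genes were called (26.2% higher, 21.1% lower). The 14 were nas-1, nas-3, nas-5, nas-8, nas-9, nas-25, nas-27, nas-29, nas-30, nas-31, nas-32, nas-33, nas-37 and nas-39. The median log2 difference was 0.80 over the tested members and 0.08 over all genes. Libraries did not overlap for 19 of 27 and 16 of the 24, against 76.2% of all genes. Those of nas-11 and nas-38 were added without daf-2lf replicate 1. Across the 6 contrasts, 22 of the 24 members were called at least once, as were 70.7% of all tested genes. The exceptions were nas-11 and nas-28, and without daf-2lf replicate 1 both were called. Other alternatives called them too. The nas-11 interaction was called with RLE scaling, no filter, the replicate block, the length trend removed, limma-voom and DESeq2. It was also called without skn-1gf replicate 3 or daf-2lf replicate 3. nas-28 was called between the double mutant and skn-1gf with limma-voom, only the genotypes compared, or without daf-2lf replicate 3.

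Among members with a known place in moulting, nas-37 (gene 181208, 9944844 to 9949063 on the minus strand of chromosome X) is needed to shed the old cuticle. Its level was 219, 126 and 235 CPM in wild-type worms, 87.1, 82.8 and 101 in skn-1gf, 105, 232 and 256 in daf-2lf worms and 307, 321 and 369.8 in double mutants. The 3 skn-1gf libraries lay below all wild-type libraries, the 3 double-mutant libraries lay above all others, and daf-2lf replicate 1 lay well below its group. In log2 terms the change was -1.10 (SE 0.30, adjusted p = 0.0125) in skn-1gf against wild type. In the double mutant it was 1.88 (SE 0.31, adjusted p = 4.40e-04) against skn-1gf and 0.75 (SE 0.30, adjusted p = 0.279) against daf-2lf, the latter not called. The double mutant's rise over wild type, at 0.78 (SE 0.30, adjusted p = 0.0499), held in 7 of 19 alternatives. It was lost without any 1 library of wild type replicates 1 and 2, of skn-1gf, of the double mutant or of daf-2lf replicate 2 (log2 0.55 to 0.88), and with RLE scaling (0.60). Without daf-2lf replicate 1 the interaction, 1.85 with all libraries, was 1.64 and called.

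nas-36 (gene 172506, 7527224 to 7531715 on the plus strand of chromosome I) is the other protease known for cuticle shedding. It was at 16.96, 13.4 and 22.2 CPM in wild-type worms, 7.55, 5.75 and 6.34 in skn-1gf, 14.3, 24.03 and 22.7 in daf-2lf worms and 17.3, 24.6 and 25.2 in double mutants. Every skn-1gf library lay below every library of the other genotypes, which overlapped one another. The log2 change in skn-1gf against wild type was -1.42 (SE 0.25, adjusted p = 0.00103), and from daf-2lf to the double mutant it was 0.14 (95% interval -0.39 to 0.67). The interaction was 1.56 (SE 0.35, adjusted p = 0.00752).

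nas-38 (gene 180407, 558157 to 563708 on the plus strand of chromosome X), linked to the sleep-like quiescence of moulting larvae, was at 22.2, 28.4 and 20.2 CPM in wild-type worms, 16.5, 12.6 and 6.71 in skn-1gf, 16.9, 45.6 and 40.9 in daf-2lf worms and 40.3, 39.1 and 47.1 in double mutants. The skn-1gf libraries lay below all wild-type libraries, and daf-2lf replicate 1 lay below every wild-type library while the other two daf-2lf libraries lay above them. Its log2 change in skn-1gf against wild type was -0.99 (SE 0.36, adjusted p = 0.0442). That call was lost without any 1 library of wild type, of the double mutant or of skn-1gf replicates 2 and 3 (log2 -1.09 to -0.70). The double mutant lay above skn-1gf by a log2 value of 1.82 (SE 0.37, adjusted p = 0.0021). In daf-2lf against wild type the log2 difference of 0.55 was not called, and without daf-2lf replicate 1 it was 0.77 and called, as were its difference of 0.73 between the double mutant and wild type and its interaction of 1.05.

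**Figure D3:**
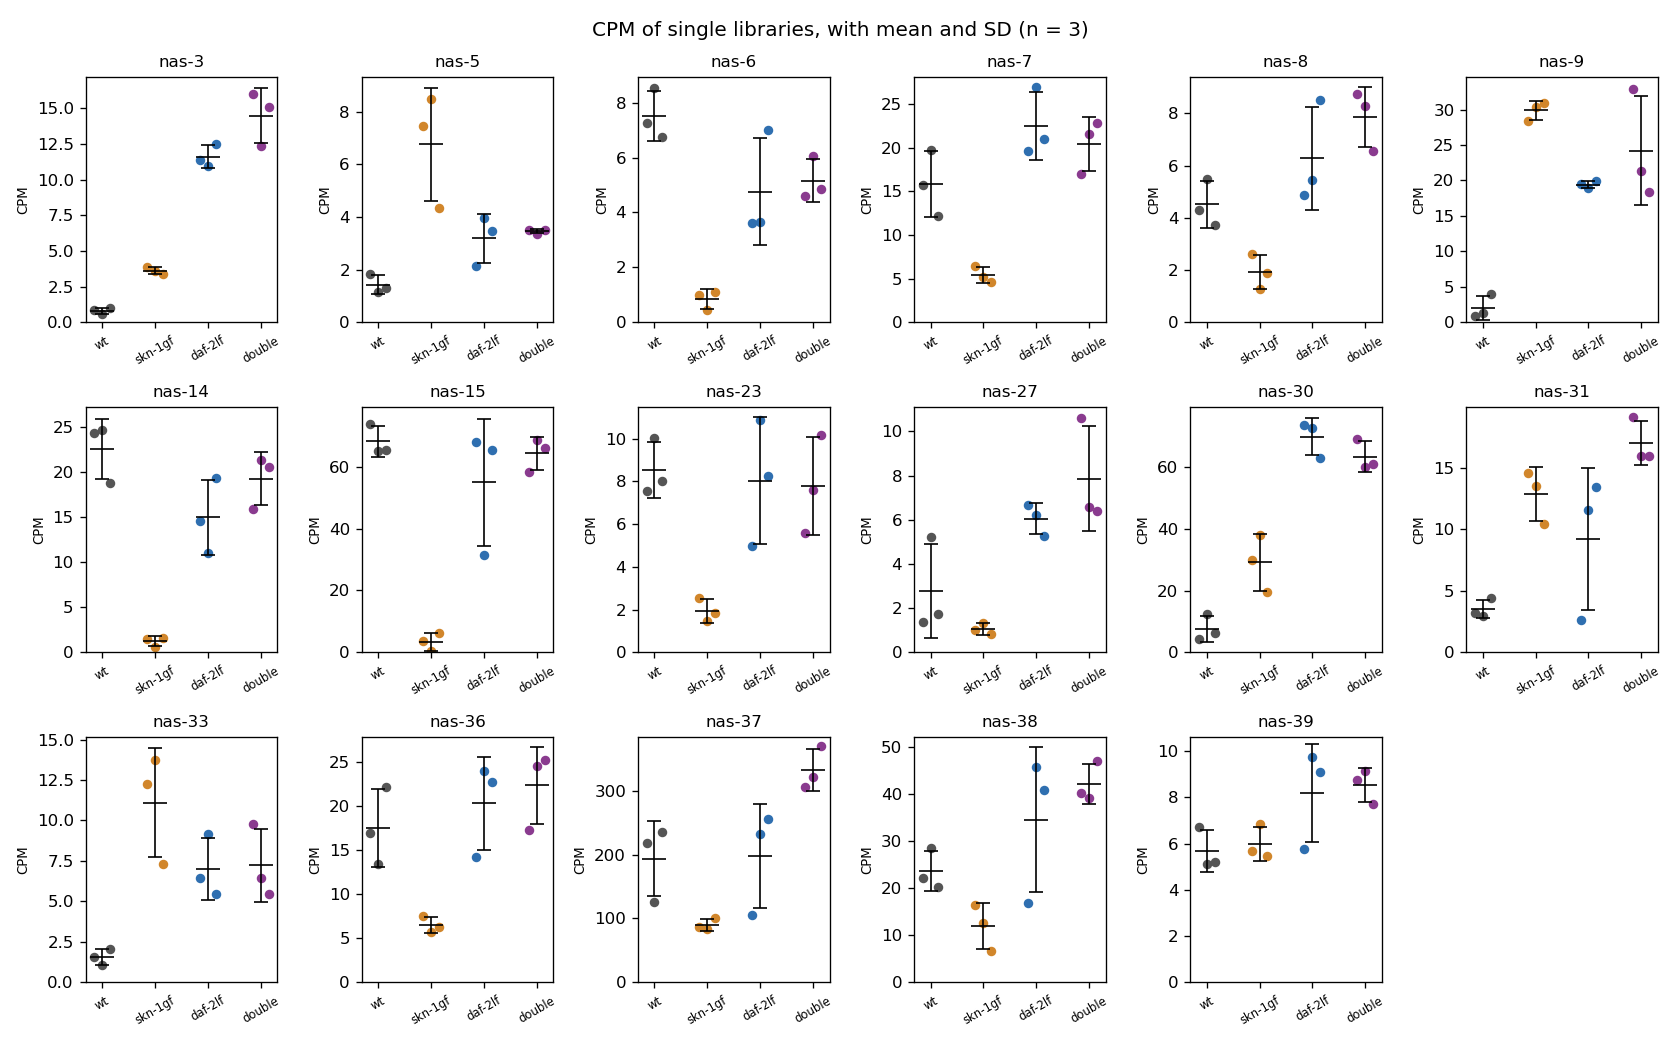
CPM of the members described with full values, apart from nas-11 and nas-22, 1 panel per gene. Each point is 1 library, with the mean and SD of the 3 libraries of each genotype. The vertical axes start at 0 and differ between panels. The skn-1gf points lie below all other genotypes for nas-6, nas-7, nas-8, nas-14, nas-15, nas-23 and nas-36, and by a small margin for nas-27, nas-37 and nas-38. The wild-type points lie below all others for nas-3, nas-5, nas-9, nas-30 and nas-33.

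The genes numbered nas-6 to nas-15 form a subgroup in the published classification of the family, most of them with a ShK domain. Of its 9 tested members, 6 fell in skn-1gf (nas-6, nas-7, nas-8, nas-13, nas-14 and nas-15), nas-9 rose, and nas-11 and nas-12 were not called, where 21.0% of all tested genes were called lower. In the double mutant against skn-1gf, which shares the skn-1gf libraries, nas-6, nas-7, nas-8, nas-12, nas-13, nas-14 and nas-15 were higher, beside 13.4% of all tested genes. In daf-2lf against wild type nas-9 rose, and the other 8 were not called, where 29.5% of all tested genes were called higher and 22.9% lower. With RLE scaling and with DESeq2, nas-6 and nas-14 were called lower there. Pharynx markers, listed since nas-6 acts there, had 0 of 6 called for skn-1gf, where 43.6% of all tested genes were called. They summed to 284 to 382 CPM in wild-type worms, 94.3 to 579.8 in skn-1gf, 268 to 519 in daf-2lf worms and 388 to 652 in double mutants.

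nas-15 (gene 180426, 777721 to 780533 on the plus strand of chromosome X) showed the largest fall in skn-1gf among members with a standard error. It was at 74.1, 65.1 and 65.6 CPM in wild-type worms, 3.78, 0.255 and 6.09 in skn-1gf, 68.2, 31.4 and 65.6 in daf-2lf worms and 58.4, 68.6 and 66.2 in double mutants. All skn-1gf libraries lay far below every other library, skn-1gf replicate 2 lowest, while the remaining genotypes overlapped and daf-2lf replicate 2 was low in its group. On the log2 scale the change was -4.30 (SE 0.64, adjusted p = 2.80e-04) in skn-1gf against wild type, and -5.01 without skn-1gf replicate 3. Against daf-2lf the double mutant differed by 0.23 (95% interval -0.97 to 1.42), and the interaction was 4.52 (SE 0.83, adjusted p = 0.00228), or 5.24 without skn-1gf replicate 3. Against skn-1gf the double mutant was higher by a log2 value of 4.21 (SE 0.64, adjusted p = 2.30e-04), or 4.93 without that library.

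nas-14 (gene 184247, 13170541 to 13174144 on the plus strand of chromosome IV) was at 24.4, 24.7 and 18.8 CPM in wild-type worms, 1.53, 0.638 and 1.57 in skn-1gf, 14.5, 11.1 and 19.4 in daf-2lf worms and 15.9, 21.4 and 20.6 in double mutants. The skn-1gf libraries lay below all others by a wide margin. The log2 change was -4.14 (SE 0.32, adjusted p = 2.10e-06) in skn-1gf against wild type and 3.91 (SE 0.32, adjusted p = 1.70e-06) in the double mutant against skn-1gf. Its interaction, 4.50 (SE 0.41, adjusted p = 4.40e-05), held in every alternative run that tested it. In daf-2lf against wild type the value of -0.59 was not called.

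nas-6 (gene 181796, 17486842 to 17490779 on the minus strand of chromosome IV), needed for a normal pharyngeal grinder, was at 7.25, 8.53 and 6.75 CPM in wild-type worms, 0.989, 0.447 and 1.12 in skn-1gf, 3.61, 3.65 and 7.01 in daf-2lf worms and 4.59, 6.05 and 4.85 in double mutants. The skn-1gf libraries were the 3 lowest, and 2 of the daf-2lf libraries and all double-mutant libraries lay between them and wild type. Its log2 change was -3.09 (SE 0.35, adjusted p = 3.40e-05) in skn-1gf against wild type. Values of -0.66 in daf-2lf worms and -0.54 in double mutants against wild type were not called. The double mutant was called lower with the length trend removed, only the genotypes compared, limma-voom or DESeq2. daf-2lf was called lower with RLE scaling, the length trend removed, limma-voom or DESeq2, or without skn-1gf replicate 2 or daf-2lf replicate 3. The interaction was 3.21 (SE 0.46, adjusted p = 5.20e-04), or 3.12 without daf-2lf replicate 1.

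nas-7 (gene 182368, 7400545 to 7402725 on the minus strand of chromosome II) was at 15.7, 19.7 and 12.2 CPM in wild-type worms, 6.43, 5.24 and 4.64 in skn-1gf, 19.6, 26.96 and 20.98 in daf-2lf worms and 16.96, 21.6 and 22.8 in double mutants. The skn-1gf libraries lay below all others, and the daf-2lf and double-mutant libraries overlapped each other and wild type. Its log2 change was -1.54 (SE 0.22, adjusted p = 2.20e-04) in skn-1gf against wild type and -0.14 (95% interval -0.60 to 0.32) in the double mutant against daf-2lf.

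nas-8 (gene 183207, 7114899 to 7119926 on the plus strand of chromosome IV) was at 4.31, 5.49 and 3.74 CPM in wild-type worms, 2.61, 1.28 and 1.91 in skn-1gf, 4.87, 5.44 and 8.53 in daf-2lf worms and 8.73, 8.28 and 6.56 in double mutants. The skn-1gf libraries were again the 3 lowest. In log2 terms the change was -1.20 (SE 0.30, adjusted p = 0.00744) in skn-1gf and 0.80 (SE 0.28, adjusted p = 0.0337) in the double mutant against wild type. The second of these was lost in 9 of 19 alternatives, among them leaving out wild type replicate 1 or 3 or double mutant replicate 1 or 2 (log2 0.68 to 0.76). Another gene, C34D4.10, overlaps nas-8 and held 92.1% as many counts. Whether counting used strand is not stated, so reads of the pair cannot be told apart.

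nas-9 (gene 178875, 4836027 to 4840013 on the minus strand of chromosome V) moved the other way. It was at 0.869, 1.25 and 3.97 CPM in wild-type worms, 28.4, 30.4 and 30.9 in skn-1gf, 19.5, 18.9 and 19.9 in daf-2lf worms and 32.9, 21.3 and 18.4 in double mutants. All libraries of the 3 mutant genotypes lay far above all wild-type libraries, of which replicate 3 was the highest. On the log2 scale the change was 3.89 (SE 0.45, adjusted p = 3.90e-05) in skn-1gf, 3.27 (SE 0.44, adjusted p = 6.40e-05) in daf-2lf worms and 3.58 (SE 0.44, adjusted p = 2.90e-05) in double mutants, each against wild type. Without wild type replicate 3 the same changes were 4.82, 4.20 and 4.51. The interaction was -3.57 (SE 0.58, adjusted p = 0.0011), or -4.51 without that library. Leaving out daf-2lf replicate 1 gave 3.17 for daf-2lf against wild type and -3.49 for the interaction.

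The remaining members of the subgroup were less abundant or changed less. nas-11, second in level per kilobase, was at 56.7, 48.8 and 55.6 CPM in wild-type worms, 49.05, 43.8 and 56.8 in skn-1gf, 25.03, 38.8 and 59.2 in daf-2lf worms and 77.96, 75.4 and 74.00 in double mutants. The double-mutant libraries lay above all others, and daf-2lf spread widely with replicate 1 lowest. From daf-2lf to the double mutant its log2 difference was 0.89 (SE 0.25, adjusted p = 0.129), not called, and without daf-2lf replicate 1 it was 0.63 and not called either. Leaving that library out, its differences of 0.59 between the double mutant and skn-1gf and 0.39 between the double mutant and wild type and its interaction of 0.82 were called. The interaction was also called in every alternative scaling, filter, model or method that fitted it. nas-13 averaged 2.63 ± 1.73 CPM (SD, n = 3) in wild-type worms and 0.496 ± 0.265 in skn-1gf, a log2 change of -2.33 (SE 0.54, adjusted p = 0.00514) that was -1.69 without wild type replicate 2. Its interaction of 2.17 was lost without any 1 of wild type replicates 1 and 2, skn-1gf replicates 1 and 2, daf-2lf replicate 2 and double mutant replicates 2 and 3 (log2 1.53 to 2.43). nas-12 averaged 0.651 ± 0.254 CPM in skn-1gf and 2.85 ± 1.15 in the double mutant, for a log2 difference of 2.11 (SE 0.48, adjusted p = 0.00453). Its change of -1.18 in skn-1gf against wild type was called, at -1.26, once daf-2lf replicate 1 was left out. Overlapping genes hold 435% (nas-13) and 251% (nas-12) as many counts as these genes themselves, so both are uncertain without strand. nas-10 had 31 counts over all libraries and was not tested.

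The genes nas-1 to nas-5 carry the astacin domain alone. Of the 4 tested, nas-3 and nas-5 rose against wild type in every mutant genotype, nas-4 fell in skn-1gf, and nas-1 is given by its counts. nas-2 had 0 counts in every library. nas-3 (gene 187045, 9478163 to 9479601 on the plus strand of chromosome V) was at 0.869, 0.578 and 0.971 CPM in wild-type worms, 3.87, 3.58 and 3.40 in skn-1gf, 11.4, 10.9 and 12.5 in daf-2lf worms and 16.01, 12.4 and 15.1 in double mutants. The genotypes did not overlap from wild type to skn-1gf to daf-2lf, and the double mutant overlapped daf-2lf in 1 library, replicate 2. The log2 change against wild type was 2.15 (SE 0.22, adjusted p = 1.60e-05) in skn-1gf, 3.83 (SE 0.22, adjusted p = 1.40e-07) in daf-2lf worms and 4.15 (SE 0.22, adjusted p = 6.00e-08) in double mutants. The value for daf-2lf was 3.74 without its replicate 1. Against daf-2lf the double mutant differed by 0.32 (95% interval -0.07 to 0.71).

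nas-5 (gene 188819, 9886189 to 9888224 on the plus strand of chromosome I) was at 1.85, 1.16 and 1.29 CPM in wild-type worms, 7.46, 8.49 and 4.35 in skn-1gf, 2.16, 3.95 and 3.48 in daf-2lf worms and 3.50, 3.36 and 3.53 in double mutants. The skn-1gf libraries were the 3 highest, daf-2lf and the double mutant overlapped, and wild type was lowest. The log2 change against wild type was 2.22 (SE 0.31, adjusted p = 1.90e-04) in skn-1gf, 1.14 (SE 0.32, adjusted p = 0.0101) in daf-2lf worms and 1.26 (SE 0.31, adjusted p = 0.0055) in double mutants. With daf-2lf replicate 1 left out the second of these was 1.25. It was the 1 member lower in the double mutant than in skn-1gf, at -0.96 (SE 0.29, adjusted p = 0.0252). That call was lost without any 1 of skn-1gf replicates 1 and 2 and the 3 double-mutant libraries (log2 -0.97 to -0.80).

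nas-1 was rare, with 1 count in wild type (3 libraries together), 30 in skn-1gf, 26 in daf-2lf worms and 45 in double mutants. The ratio of its level to wild type was 33.3 in skn-1gf (95% exact interval 5.54 to 1358), 32.9 in daf-2lf (5.40 to 1347) and 42.7 in the double mutant (7.28 to 1722). These intervals cover counting error only. nas-4 averaged 19.5 ± 8.08 CPM (SD, n = 3) in wild-type worms, 8.02 ± 1.96 in skn-1gf, 22.1 ± 4.78 in daf-2lf worms and 26.2 ± 2.81 in double mutants. It fell in skn-1gf by 1.27 on the log2 scale (SE 0.30, adjusted p = 0.00574), and its interaction of 1.52 was lost without wild type replicate 3 (1.21), skn-1gf replicate 2 (1.34) or double mutant replicate 1 (1.43). The overlapping gene C05D11.5 held 56.0% as many counts as nas-4.

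The subgroup nas-16 to nas-30 is the one that in the published classification carries EGF and CUB domains. It holds 14 of the 36 genes, and 7 were tested. nas-30 (gene 190803, 938483 to 947710 on the plus strand of chromosome I) was the most abundant of them, at 4.23, 12.4 and 6.15 CPM in wild-type worms, 29.9, 37.9 and 19.5 in skn-1gf, 73.8, 72.8 and 62.9 in daf-2lf worms and 69.1, 59.98 and 60.9 in double mutants. Wild type was lowest, skn-1gf intermediate without overlap, and daf-2lf and the double mutant highest and overlapping. The log2 change against wild type was 1.94 (SE 0.34, adjusted p = 9.40e-04) in skn-1gf, 3.20 (SE 0.36, adjusted p = 1.40e-05) in daf-2lf worms and 3.06 (SE 0.35, adjusted p = 1.70e-05) in double mutants. Between the double mutant and skn-1gf it was 1.12 (SE 0.33, adjusted p = 0.0204), a call lost without skn-1gf replicate 1 (1.12) or 3 (0.90) or double mutant replicate 1 (1.05). Its interaction was -2.08 (SE 0.47, adjusted p = 0.00749). The rise in daf-2lf was 3.07 and the interaction -1.95 without daf-2lf replicate 1.

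nas-27 (gene 188809, 1175925 to 1179323 on the minus strand of chromosome II) was at 1.36, 5.20 and 1.71 CPM in wild-type worms, 0.989, 1.34 and 0.829 in skn-1gf, 6.67, 6.22 and 5.27 in daf-2lf worms and 10.6, 6.59 and 6.39 in double mutants. Wild type replicate 2 stood apart from the other two wild-type libraries and nearly reached the lowest library of daf-2lf. skn-1gf lay below all other genotypes, by a small margin. The log2 change was -1.39 (SE 0.48, adjusted p = 0.0327) in skn-1gf against wild type, a call lost without wild type replicate 2 (-0.56) or any 1 skn-1gf library (-1.58 to -1.24). Against wild type it was 1.15 (SE 0.43, adjusted p = 0.0399) in daf-2lf. That call was lost without wild type replicate 1 or 3, skn-1gf replicate 1, daf-2lf replicate 1 or 2 or double mutant replicate 2 (0.81 to 1.15), and without wild type replicate 2 the value was 1.98. Against skn-1gf the double mutant was higher by a log2 value of 2.92 (SE 0.47, adjusted p = 3.70e-04). Its log2 change against wild type was 1.52 (SE 0.42, adjusted p = 0.0107), or 2.35 without wild type replicate 2. Leaving out daf-2lf replicate 1 took the daf-2lf value to 0.97, and the interaction, 1.77 and not called with all libraries, to 1.93 and called.

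nas-23 (gene 3565992, 7491267 to 7493699 on the minus strand of chromosome II) was at 7.56, 10.02 and 8.04 CPM in wild-type worms, 2.56, 1.47 and 1.82 in skn-1gf, 4.97, 10.9 and 8.25 in daf-2lf worms and 5.59, 7.59 and 10.2 in double mutants. The skn-1gf libraries lay below all others, which overlapped one another. Its log2 change was -2.11 (SE 0.33, adjusted p = 4.10e-04) in skn-1gf against wild type and 1.98 (SE 0.33, adjusted p = 5.00e-04) in the double mutant against skn-1gf. In daf-2lf against wild type it was -0.09 (95% interval -0.76 to 0.58).

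nas-22 (gene 188423, 11474699 to 11478007 on the plus strand of chromosome V) had 143 of its 145 counts in wild type, with 44, 73 and 26 in the 3 libraries. It had 0 counts in every skn-1gf and every double-mutant library, and 2 counts in daf-2lf, both in replicate 1. Against the floor of 3 counts per library it was at least 11.1-fold lower in skn-1gf and at least 15.6-fold lower in the double mutant. Its level in wild type was 56.6 times that in daf-2lf (95% exact interval 15.4 to 472). Its 2 neighbours nas-20 and nas-21 had 27 and 17 counts over all libraries.

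Of the other tested members of the subgroup, nas-29 averaged 4.07 ± 0.976 CPM (SD, n = 3) in wild-type worms, 6.23 ± 2.20 in skn-1gf, 13.6 ± 5.77 in daf-2lf worms and 16.01 ± 2.44 in double mutants. It rose in daf-2lf by a log2 value of 1.74 (SE 0.35, adjusted p = 0.0014), or 1.91 without daf-2lf replicate 1, while its log2 difference of 0.61 in skn-1gf was not called. nas-25 had 8, 2 and 8 counts in the wild-type libraries and averaged 0.256 ± 0.142 CPM there, 2.25 ± 1.05 in skn-1gf, 1.27 ± 1.14 in daf-2lf worms and 1.83 ± 0.777 in double mutants. The overlapping gene F46C5.2 held 358% as many counts. nas-28 averaged 0.612 ± 0.112 CPM in wild-type worms and 1.11 ± 0.181 in the double mutant and was called in no contrast. Without daf-2lf replicate 1 its log2 difference between the double mutant and skn-1gf, 1.25, was called. The untested genes of this subgroup are nas-16 and nas-17 with 0 counts, nas-18 with 1, nas-19 with 2, nas-21, nas-20 and nas-24, which had 74 counts over all libraries.

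**Figure D4:**
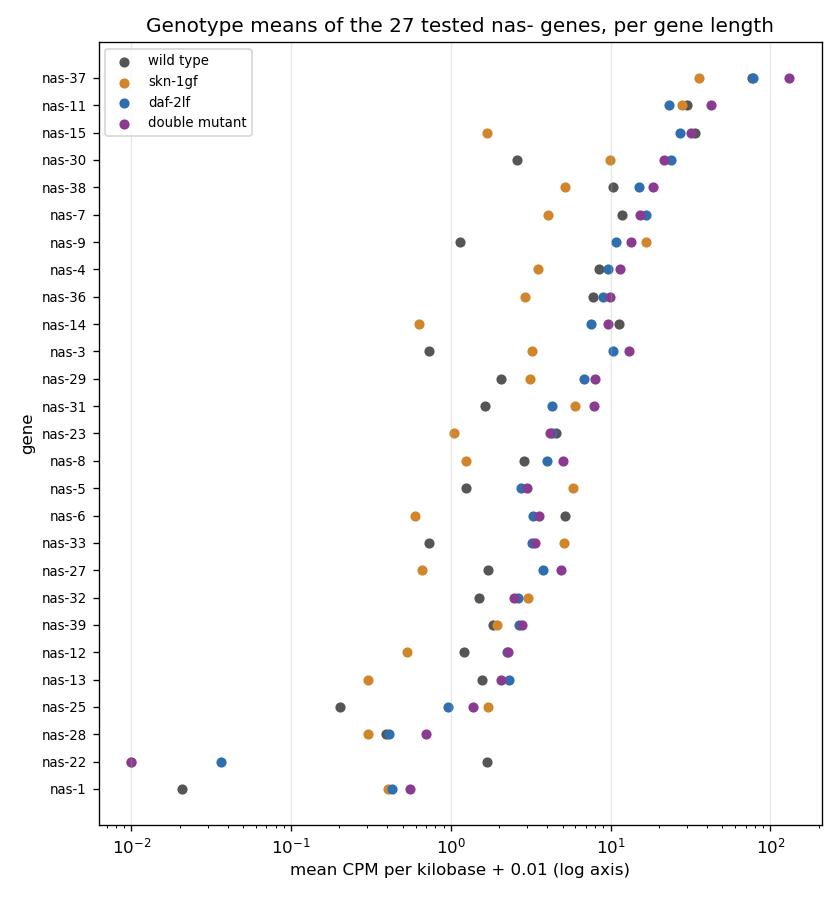
Mean CPM per kilobase of deposited gene length for the 27 tested astacin genes by genotype, plus 0.01 and on a log axis, ordered by the mean over all libraries, with nas-37 at 80.1 at one end and nas-1 at 0.341 at the other. Genotypes lie close together for nas-39 and far apart for nas-9, nas-14 and nas-15; nas-22, with 0 counts in skn-1gf and the double mutant, is drawn at 0.01 there.

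The genes nas-31, nas-32 and nas-33 rose against wild type in all 3 mutant genotypes. nas-31 (gene 186493, 10918857 to 10921847 on the minus strand of chromosome V) was at 3.21, 2.99 and 4.39 CPM in wild-type worms, 14.6, 13.5 and 10.4 in skn-1gf, 2.66, 11.5 and 13.5 in daf-2lf worms and 19.1, 15.96 and 15.99 in double mutants. The skn-1gf and double-mutant libraries lay above wild type without overlap, whereas daf-2lf replicate 1 lay below all wild-type libraries and the other two daf-2lf libraries above. In log2 terms the change was 1.86 (SE 0.44, adjusted p = 0.00544) in skn-1gf and 1.38 (SE 0.44, adjusted p = 0.0194) in daf-2lf against wild type. The latter was 1.72 without daf-2lf replicate 1, and it was lost without wild type replicate 1 or 2 or daf-2lf replicate 2 or 3 (1.00 to 1.31). The interaction of -0.98 was not called with all libraries, and without daf-2lf replicate 1 it was -1.33 and called.

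nas-33 (gene 186987, 6451698 to 6455257 on the minus strand of chromosome X) was at 1.59, 1.06 and 2.03 CPM in wild-type worms, 12.3, 13.7 and 7.29 in skn-1gf, 6.42, 9.15 and 5.44 in daf-2lf worms and 9.78, 6.46 and 5.48 in double mutants. All mutant libraries lay above all wild-type libraries, and the mutant genotypes overlapped one another. The log2 change against wild type was 2.82 (SE 0.35, adjusted p = 7.00e-05) in skn-1gf, 2.16 (SE 0.35, adjusted p = 2.70e-04) in daf-2lf worms (2.11 without daf-2lf replicate 1) and 2.20 (SE 0.35, adjusted p = 2.10e-04) in double mutants. nas-32 averaged 3.03 ± 0.312 CPM (SD, n = 3) in wild-type worms, 6.18 ± 1.36 in skn-1gf, 5.31 ± 1.09 in daf-2lf worms and 5.03 ± 0.743 in double mutants. Its log2 rise was 1.02 (SE 0.23, adjusted p = 0.00462) in skn-1gf and 0.81 in daf-2lf, the latter lost without wild type replicate 1 (0.72). The rise of 0.73 in the double mutant was lost without wild type replicate 1 or 2 or double mutant replicate 1 or 3 (0.62 to 0.75). The interaction of -1.10 was lost without wild type replicate 1 or 2, skn-1gf replicate 1 or 2, daf-2lf replicate 2 or double mutant replicate 1 or 2 (-1.12 to -0.94).

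nas-39 (gene 3565986, 16456927 to 16471333 on the plus strand of chromosome X) has the domain layout of BMP1/tolloid, with CUB and EGF domains after the protease. It was at 6.73, 5.11 and 5.22 CPM in wild-type worms, 5.66, 6.83 and 5.47 in skn-1gf, 5.77, 9.74 and 9.09 in daf-2lf worms and 8.78, 9.14 and 7.71 in double mutants. The double-mutant libraries lay above all wild-type and skn-1gf libraries, and daf-2lf replicate 1 lay within the range of wild type. The log2 change in the double mutant against wild type was 0.58 (SE 0.22, adjusted p = 0.043). That call was lost in 12 of 19 alternatives, among them RLE scaling (0.40) and leaving out any 1 of wild type replicates 2 and 3, skn-1gf replicates 1 and 2 and the 3 double-mutant libraries (0.51 to 0.65). The other contrasts were not called with all libraries. Without daf-2lf replicate 1, values of 0.62 in daf-2lf against wild type and 0.50 between the double mutant and skn-1gf were called. The skn-1gf difference was 0.07 (95% interval -0.41 to 0.55). Overlapping genes, chiefly F38E9.1, held 103% as many counts.

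Astacins that carry another symbol lie outside the rule and were looked at beside the members. toh-1, an astacin that the deposited description also names nas-26, averaged 3.85 ± 1.65 CPM (SD, n = 3) in wild-type worms, 28.4 ± 8.95 in skn-1gf, 39.5 ± 7.79 in daf-2lf worms and 35.05 ± 4.66 in double mutants. It rose against wild type, by a log2 value of 2.89 (SE 0.33, adjusted p = 3.60e-05) in skn-1gf and 3.36 (SE 0.33, adjusted p = 5.30e-06) in daf-2lf. dpy-31, the procollagen C-proteinase that cuts the cuticle collagen SQT-3, averaged 58.2 ± 14.1, 61.6 ± 1.81, 64.8 ± 20.8 and 85.04 ± 4.36 CPM in the same order and was called in none of the 6 contrasts. hch-1, the hatching enzyme, had 0 counts in every library.

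Genes of collagen processing, among them the substrate of dpy-31, were counted for comparison. In skn-1gf 3 of 12 rose and 4 fell against wild type, with a median log2 change of -0.31. Of all tested genes 22.6% rose and 21.0% fell in skn-1gf, and 29.5% rose and 22.9% fell in daf-2lf. In the double mutant over daf-2lf 1.01% rose. sqt-3 averaged 2523 ± 95.7 CPM (SD, n = 3) in wild-type worms, 339 ± 71.5 in skn-1gf, 2801 ± 797 in daf-2lf worms and 2329 ± 315 in double mutants, a log2 change of -2.90 (SE 0.22, adjusted p = 2.00e-06) in skn-1gf. In daf-2lf 1 of 12 rose and 4 fell, while 1 gene, the cuticle collagen dpy-17, rose in the double mutant over daf-2lf; it is named after its value was seen.

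Among 27 moulting genes, 8 rose and 13 fell in skn-1gf, 11 rose and 3 fell in daf-2lf, both against wild type, with median log2 changes of -0.55 and 0.28 (all tested genes 0.03 and 0.15). In the double mutant 0 were called against daf-2lf, and 14 were higher and 2 lower than in skn-1gf. The interaction was called for 14, positive for 11 and negative for 3. Of all tested genes 43.6% were called in skn-1gf and 52.3% in daf-2lf. For the double mutant 1.62% were called against daf-2lf and 31.7% against skn-1gf, and 27.7% for the interaction. mlt-11, a secreted protease inhibitor needed for moulting, averaged 532 ± 260.5 CPM (SD, n = 3) in wild-type worms and 722 ± 261 in skn-1gf. That log2 difference of 0.44 (SE 0.34, adjusted p = 0.31) was not called. The same gene averaged 1038 ± 247 CPM in daf-2lf worms and 1389 ± 77.5 in double mutants, and was called higher than wild type in each of them. Its remaining contrasts were not called. The summed level of the list was 7481 to 10160 CPM in wild-type worms, 4668 to 6234 in skn-1gf, 8332 to 9554 in daf-2lf worms and 9769 to 10570 in double mutants. daf-2lf replicate 1 was the lowest daf-2lf library, and the other two summed to 9438 and 9554. The part of moulting or stage in the astacin values was not tested.

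Other metalloproteases and their inhibitors (17 tested) were counted too, with ADAM, ADAMTS, matrix metalloprotease and TIMP-type genes. Of these 17, 5 were higher and 5 lower in skn-1gf and 7 higher in daf-2lf, against wild type. Their median log2 changes were 0.29 and 0.42. In the double mutant 0 were called against daf-2lf, and the interaction was called for 5. Of all tested genes 43.6% were called in skn-1gf, 52.3% in daf-2lf, 1.62% in the double mutant against daf-2lf and 27.7% in the interaction. adt-2, an ADAMTS protease that affects cuticle collagen, averaged 108 ± 7.39 CPM (SD, n = 3) in wild-type worms, 148 ± 10.02 in skn-1gf, 155 ± 19.2 in daf-2lf worms and 173 ± 6.21 in double mutants, with a log2 change of 0.46 (SE 0.13, adjusted p = 0.0144) in skn-1gf.

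**Figure D5:**
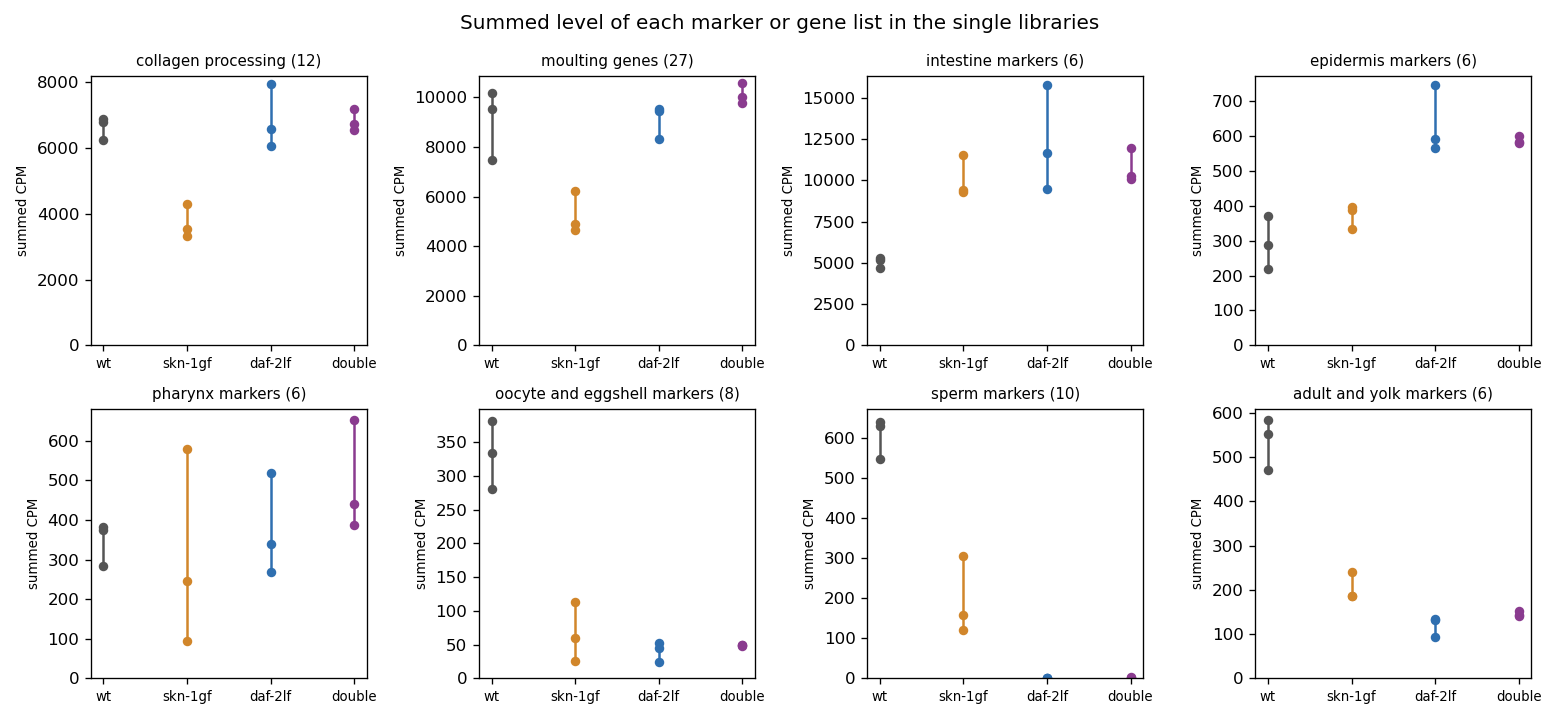
Summed CPM of 8 gene lists by genotype, 1 panel per list, on linear axes that start at 0; the 3 points of a genotype are its 3 libraries, joined by a line. Moulting genes lie lowest in skn-1gf (4668 to 6234), and sperm markers lie at 120 to 305 in skn-1gf and at 2.09 or below in daf-2lf and the double mutant.

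Tissue markers give the context of these values. In skn-1gf against wild type 4 of 6 intestine markers rose and 0 fell, and summed levels were 4705 to 5318 CPM in wild-type worms, 9294 to 11550 in skn-1gf, 9450 to 15770 in daf-2lf worms (at most 11670 without replicate 1) and 10080 to 11960 in double mutants. Of 6 epidermis markers, the tissue that makes the cuticle, 1 rose (elt-3) and 2 fell (col-19 and che-14) in skn-1gf, and the list summed to 219.5 to 369 CPM in wild-type worms, 334 to 397 in skn-1gf, 565 to 746 in daf-2lf worms (at most 592 without replicate 1) and 580.1 to 599 in double mutants. Germline markers summed to 1352 to 1458 CPM in wild-type worms and 392 to 1066 in skn-1gf. Against wild type 5 of 6 fell in skn-1gf and 5 of 6 in daf-2lf. Of 6 neuron markers 4 rose in skn-1gf, and of 6 body wall muscle markers 3 rose. Among all tested genes 22.6% rose and 21.0% fell in skn-1gf, and 22.9% fell in daf-2lf. The marker lists were not tested as sets. The part of these tissue markers in the astacin results was not tested.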

How the data were processed

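RNA of whole worms was sequenced in 12 libraries. The authors deposited 1 table of whole-number counts per gene, not normalized, per the file headers. The aligner, counter, strand handling and treatment of reads matching several genes are not given in the sources used here. The submitters' processing notes name the build ce10, while per the file headers the RefSeq chromosome versions are those of WBcel235, and all 36 astacin identifiers, symbols and coordinates matched the RefSeq WBcel235 table. Groups and replicate numbers came from the sample labels, and 0 per-sample columns were left unused.

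Counts were analysed in R 4.3.3 with edgeR 4.0.16. The filter filterByExpr (minimum count 10) kept 15575 genes, and libraries were scaled by TMM. CPM are counts over the TMM-scaled total, times 1e6. A quasi-likelihood fit with 1 coefficient per genotype over all 12 libraries gave 6 contrasts, with Benjamini-Hochberg adjustment over all tested genes and calls under 0.05. Totals were 16779245 to 29346039 counts. The floor is 3 counts per library, and floors and exact 95% intervals of count ratios cover counting error only. Alternatives were RLE scaling, no filter on low counts, a replicate block, removal of each library's length trend, fits to the genotypes compared alone, limma-voom (limma 3.58.1) with sample quality weights, DESeq2 1.42.0, and leaving out each library. The procedure was tested on simulated data.

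The members, gene lists and alternatives were chosen with earlier results of these data known. Values in every library are given for the 12 members with the largest called change among those reaching 5 CPM in 1 genotype, and for nas-6, nas-7, nas-36, nas-37, nas-38 and nas-39. nas-11 and nas-22 were added after their values were seen. The other members are given by means, counts and ranges, and from each gene list only its 3 most abundant genes may be named with values. Deposited gene lengths serve for levels per kilobase, and how they were computed is not stated. No sequence is printed, since no sequence of these genes was used here.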

Additional observations from a re-analysis of the deposited data

Results flagged for a closer look

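The skn-1gf effect differed between the daf-2lf and the wild-type background, by the edgeR interaction term, for 17 of 27 tested astacin genes. Without nas-1, nas-22 and nas-25 it was called for 16 of 24. Of all tested genes 27.7% were called (9.91% positive, 17.7% negative). The values below are log2 interactions, the skn-1gf effect in daf-2lf minus that in wild type. Positive values were found for the proteases with a ShK-like domain nas-6 (3.21), nas-8 (1.53), nas-13 (2.17), nas-14 (4.50) and nas-15 (4.52). They were also found for nas-7 (1.40), for nas-4 (1.52), for nas-23 (2.07) and for the cuticle-shedding proteases nas-36 (1.56) and nas-37 (1.85). Negative values were found for nas-1 (-4.18, resting on 1 wild-type count in a gene that passed the filter only through the mutants), nas-3 (-1.83), nas-5 (-2.10), nas-9 (-3.57), nas-30 (-2.08), nas-32 (-1.10) and nas-33 (-2.77). With 3 libraries per genotype, single libraries were not tested as extreme within their group.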

How the results depend on the processing

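Of 83 called astacin changes, 68 held in every alternative run that tested them and 0 reversed. Fits to the genotypes compared alone tested 62 of the 83. They left out the interactions, nas-1 against wild type, and nas-25 in daf-2lf against wild type. In daf-2lf against wild type the 12 calls became 7 when only the genotypes compared were fitted and 20 with limma-voom. There the split of 11 higher and 1 lower became 10 and 3 with RLE scaling or DESeq2, 11 and 3 with the length trend removed or without skn-1gf replicate 2, 15 and 5 with limma-voom, and 9 and 4 without daf-2lf replicate 3. Between the double mutant and daf-2lf, 0 calls became 3 with limma-voom and 1 with DESeq2, and leaving out 1 library gave 0 to 1. In the double mutant against wild type limma-voom called 23, and fitting only the genotypes compared gave 16 higher and 4 lower. Calls of the double mutant against wild type were lost for nas-8, nas-37 and nas-39 with RLE scaling, DESeq2 or no filter, for nas-32 with RLE scaling or no filter, and for nas-8, nas-32 and nas-39 with the length trend removed. In daf-2lf against wild type nas-27 was lost with RLE scaling, DESeq2, the length trend removed or only the genotypes compared, and nas-31 and nas-32 with the last of these. In skn-1gf against wild type nas-27 was lost with limma-voom or only the genotypes compared. Removing the length trend also ended the call of nas-30 between the double mutant and skn-1gf and the interaction of nas-4, and using no filter ended the interaction of nas-32. RLE scaling shifted the median of all genes by -0.16 (skn-1gf), -0.18 (daf-2lf) and -0.18 (double mutant) against wild type, and by 0.15 (interaction). With the replicate block the counts were 21 (skn-1gf) and 12 (daf-2lf) against wild type, 0, 17 and 13 for the double mutant against daf-2lf, skn-1gf and wild type in turn, and 17 for the interaction. There nas-38 in skn-1gf (-0.97) and nas-8 (0.79) and nas-39 (0.58) in the double mutant, all against wild type, were not called, nor was the interaction of nas-13 (2.09), and the interaction of nas-11 was. Same-numbered libraries had correlations of -0.129 to 0.296, over 0.1 in 2 of 18 pairs, against -0.304 to 0.177 for the other pairs. Of 12 libraries, 5 correlated best with their own number. These values cannot tell whether same-numbered libraries shared a culture, which the labels do not say. Depth limits the 9 untested members, with at most 74 counts over all libraries, and nas-1, nas-22 and nas-25, whose calls the counts above include.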

Other observations

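Besides toh-1, dpy-31 and hch-1, the deposited annotation gives an astacin domain to 2 further genes outside the rule. The pseudogene nas-40 on chromosome V had 1 count over all 12 libraries. Y19D10A.6, a protein-coding gene on chromosome V without a nas- symbol, had 0 counts in every library.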
